A study of Mus musculus with 6 samples.

Results

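The 10 genes described here make, modify and place the ceramides of the skin's water barrier. They were chosen by symbol (Cers3, Cers4, Abca12, Pnpla1, Cyp4f39, Degs2, Ugcg, Sptlc3, Smpd3 and Sdr9c7), by a rule that uses no measured value, though with earlier results of these data known, and all 10 were found among the 21959 genes of the deposited table. RNA-seq was performed on dorsal skin of C57BL/6 mice that were shaved in telogen, the resting phase of the hair cycle, at 7 weeks of age. The vehicle group (n = 3 mice) received a solvent of 30% dipropylene glycol and 70% water, and the rebamipide group (n = 3 mice) received 3% rebamipide, a mucosa-protecting drug used for gastric ulcers, on the shaved skin daily for 7 days. No transgene or deletion is named for either group. Full-thickness skin holds epidermis, hair follicles, dermis, fat and muscle in proportions that can differ between pieces.

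Ceramides are long-chain bases joined to a fatty acid. In the upper epidermis keratinocytes join them to ultra-long fatty acids whose far end is hydroxylated and esterified with linoleic acid, and such acylceramides, packed with cholesterol and free fatty acids between the dead cells, hold water in. They leave the living cell as glucosylceramides and sphingomyelins in lamellar granules, are freed of their head groups outside it, and are in part bound to the proteins of the cornified envelope. Inherited loss of several of these genes causes ichthyosis in humans.

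All 10 genes had a lower mean in rebamipide-treated skin, at 13.2% to 44.4% of the vehicle mean. Only Ugcg passed the test across all genes, with a log2 fold change of -1.17, and the others lay between -1.69 and -2.92 with large errors. The rebamipide libraries differed from each other. Replicate 3 held 0 counts of Abca12, Pnpla1, Cyp4f39, Sptlc3 and Sdr9c7, 6 counts of Cers3 and 12 of Degs2, but 692 counts of Ugcg.

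The sequencing depth was 38676018 to 39915276 counts per library for vehicle and 32709801 to 34706852 for rebamipide. Levels are given as CPM, the reads of a gene scaled to the size of its library, and a gene with 0 counts, which allows up to 3 counts, could lie at up to 0.0601 to 0.0641 CPM in vehicle and 0.0987 to 0.117 CPM in rebamipide, for counting error only. Mitochondrially encoded genes took 2.59% to 5.36% of the counts in vehicle and 13.3% to 22.0% in rebamipide. CPM were therefore normalized with edgeR's TMM factors, after which the median log2 fold change over 14875 genes tested was -0.17. The label skin was checked against marker genes. In rebamipide replicate 3 the basal keratin genes had 0 (Krt14) and 4 (Krt5) counts and the suprabasal ones 2 (Krt1) and 51 (Krt10), and 2 of 8 basal, 4 of 8 suprabasal and 7 of 10 cornified keratinocyte markers were at 0. Other markers kept counts there. Of the basal list, Itga6 had 3388, Dst 2091 and Itgb4 348 counts (77.9%, 38.9% and 18.6% of the vehicle mean CPM). Cdsn of the cornified list had 916 (11.9%). This library differed from the other 5 in its keratinocyte markers and also in its skeletal muscle markers (mean log2 CPM 3.89, against 7.26 to 10.8). Of the muscle markers, Myh7 was at 1712% of the vehicle mean there. The library was also lowest for the sebaceous gland (2.57, against 5.57 to 6.65) and fibroblast lists (7.49, against 8.34 to 10.6). The same held for the leukocyte (2.36, against 3.99 to 5.73) and melanocyte lists (-0.90, against 1.15 to 6.85). It was highest for the adipocyte (9.53) and endothelial lists (7.45). Within its group, over all genes, rebamipide replicate 3 was closer to replicate 2 (chi-square over its degrees of freedom 79.1) than to replicate 1 (498). The values among the vehicle libraries were 189 to 714, and libraries of different groups were not compared in this way. Calls are given with and without it, and other values by library. Markers of other cell types differed in the same libraries. Called higher in rebamipide with edgeR, against 14.1% of all genes, were 6 of 9 adipocyte markers, 5 of 7 brown adipocyte markers (median log2 fold change 3.83) and 4 of 7 endothelial markers, all 7 of which were higher without overlap, against 24.5% of all genes. Cidea and Elovl3 of the brown adipocyte list also stand in the sebaceous gland list. They went opposite ways, with log2 fold changes of 6.23 for Cidea and -1.45 for Elovl3. Ucp1, the uncoupling protein of brown fat, had 0 counts in every vehicle library and 81048, 220449 and 150572 in rebamipide. The 12 growing hair follicle markers had a median log2 fold change of -4.75, with 0 called lower by edgeR, against 6.51% of all genes, and 1 by DESeq2, against 16%. The medians of the melanocyte, fibroblast and leukocyte lists, of 7 markers each, were -3.17, -1.20 and -0.77. Of these, edgeR called 1, 0 and 0 lower, against 6.51% of all genes. The part of these differences in the values below was not tested. In a bulk sample, fewer cells of a type and less RNA per cell cannot be told apart, and this holds for every gene below.

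The first reaction of ceramide synthesis joins serine to a fatty acyl-CoA, and Sptlc3 encodes a catalytic subunit of the enzyme, serine palmitoyltransferase, that widens its choice of acyl chains. Sptlc3 (ENSMUSG00000039092, chromosome 2, 139335833 to 139479594, plus strand; this and the later positions are those of the table, for which the submitters' processing notes list GRCm39) had 9.27, 35.4 and 51.9 normalized CPM in vehicle replicates 1 to 3 and 10.5, 7.87 and 0 in rebamipide replicates 1 to 3. Vehicle replicate 1 was low and lay inside the rebamipide range, so the groups overlapped. The means were 32.2 ± 21.5 and 6.12 ± 5.46 CPM (SD, n = 3 in each group here and below), and the fitted log2 fold change of -2.39 had a standard error (SE) of 1.51 (adjusted p = 0.273, edgeR's quasi-likelihood test with Benjamini-Hochberg adjustment, as for all adjusted p-values below unless another tool is named).

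Ceramide synthases attach the fatty acid. Cers3 (ENSMUSG00000030510, chromosome 7, 66393252 to 66473439, plus strand) encodes the synthase that takes ultra-long acyl chains and is needed for acylceramides. Its level was 71.7, 63.9 and 59.5 CPM in vehicle and 16.1, 12.9 and 0.229 CPM in rebamipide. The vehicle libraries were close together, every rebamipide library lay below them, and replicate 3 was nearly empty. The means of 65.0 ± 6.20 and 9.76 ± 8.41 CPM gave a log2 fold change of -2.73 (SE 1.17, adjusted p = 0.136). Cers4 (ENSMUSG00000008206, chromosome 8, 4543026 to 4581680, plus strand), a synthase that prefers shorter acyl chains than Cers3, had 66.0, 106 and 174 CPM in vehicle and 40.7, 30.8 and 8.66 CPM in rebamipide. The groups did not overlap, and 227 reads were left in rebamipide replicate 3. The log2 fold change of Cers4 was -2.11 (SE 0.64, adjusted p = 0.0615).

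Degs2 encodes the enzyme that hydroxylates the long-chain base and so makes phytoceramides, a class abundant in epidermis. Degs2 (ENSMUSG00000021263, chromosome 12, 108644970 to 108668570, minus strand) was the gene of the lowest level in vehicle, with 3.08, 5.56 and 12.7 CPM, against 3.92, 2.22 and 0.458 CPM in rebamipide. Vehicle replicate 1 lay below rebamipide replicate 1, so the groups overlapped. The log2 fold change was -1.69 (SE 0.86, adjusted p = 0.190).

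Other genes act on the far end of the fatty acid. Cyp4f39 (ENSMUSG00000061126, chromosome 17, 32671697 to 32712294, plus strand), the mouse counterpart of the human ichthyosis gene CYP4F22, encodes the hydroxylase of the far end of the chain. It stood at 55.0, 46.2 and 67.2 CPM in vehicle and at 21.8, 13.0 and 0 CPM in rebamipide. Pnpla1 (ENSMUSG00000043286, chromosome 17, 29077385 to 29109283, plus strand) encodes the transacylase that moves linoleate from triglyceride onto the hydroxylated ceramide. Pnpla1 had 35.1, 37.7 and 23.3 CPM in vehicle and 8.10, 5.80 and 0 CPM in rebamipide. For both genes every rebamipide library lay under every vehicle library. The log2 fold changes were -2.27 for Cyp4f39 (SE 1.48, adjusted p = 0.285) and -2.79 for Pnpla1 (SE 1.38, adjusted p = 0.181).

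For transport, Ugcg adds glucose to ceramide and Abca12 carries glucosylceramides into lamellar granules. Ugcg (ENSMUSG00000028381, chromosome 4, 59189257 to 59222833, plus strand), which most cell types use for glycosphingolipids, had 49.8, 69.1 and 72.6 CPM in vehicle and 25.5, 33.0 and 26.4 CPM in rebamipide. The 3 rebamipide libraries were close together, replicate 3 among them, and all lay below vehicle. Ugcg fell from a mean of 63.8 ± 12.3 CPM to 28.3 ± 4.11 CPM, and its log2 fold change was -1.17 (SE 0.22, adjusted p = 0.0199). The adjusted p of Ugcg was 0.000764 with DESeq2, but with edgeR it was 0.0951 without vehicle replicate 2, 0.0713 without rebamipide replicate 2 and 0.0678 without rebamipide replicate 3, at log2 fold changes of -1.15, -1.29 and -1.12. Without replicate 3 of both groups it was 0.109, at -1.01. Without either replicate 2 edgeR called at most 1 gene of the whole table. Abca12 (ENSMUSG00000050296, chromosome 1, 71281435 to 71454069, minus strand), the gene of harlequin ichthyosis, had 49.4, 146 and 174 CPM in vehicle and 27.0, 21.6 and 0 CPM in rebamipide. Vehicle replicate 1 was the lowest of its group but above every rebamipide library. The log2 fold change of Abca12 was -2.92 (SE 1.60, adjusted p = 0.219), the most negative of the 10 with all libraries in edgeR. Without vehicle replicate 3, Pnpla1 was more negative in edgeR, at -2.95 against -2.57 for Abca12.

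The last 2 genes act on ceramides that are already made or stored. Sdr9c7 (ENSMUSG00000040127, chromosome 10, 127734387 to 127747630, plus strand) encodes a dehydrogenase that oxidizes the linoleate part of acylceramides before they are bound to envelope proteins. It had 34.8, 55.4 and 58.5 CPM in vehicle and 14.5, 10.1 and 0 CPM in rebamipide, without overlap, and the log2 fold change was -2.59 (SE 1.45, adjusted p = 0.225). Smpd3 (ENSMUSG00000031906, chromosome 8, 106979180 to 107064620, minus strand) encodes neutral sphingomyelinase 2, which releases ceramide from sphingomyelin in many tissues. Its level was 32.6, 74.4 and 105 CPM in vehicle and 35.1, 10.9 and 3.47 CPM in rebamipide. Rebamipide replicate 1 lay above vehicle replicate 1, so the groups overlapped, and the log2 fold change was -2.09 (SE 0.87, adjusted p = 0.128).

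**Figure D1:**
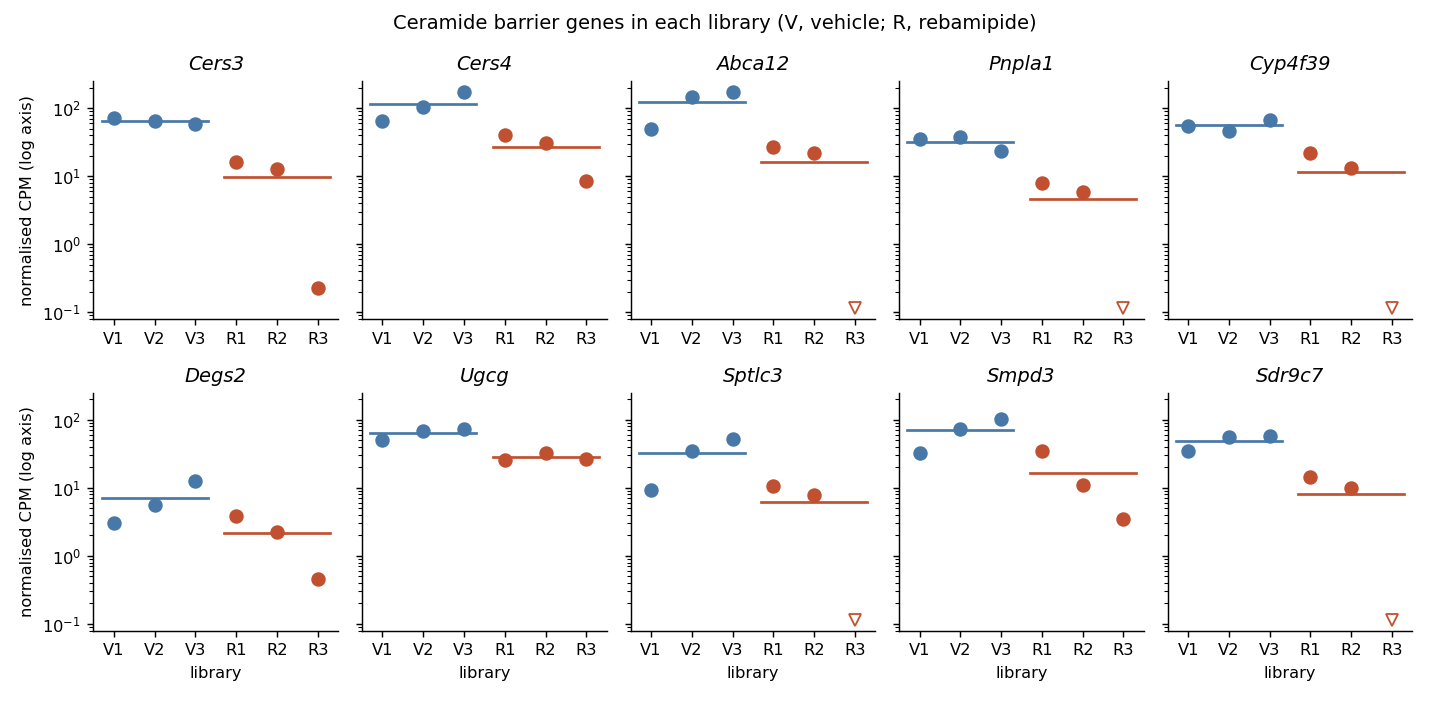
Normalized CPM (log axis) of the 10 ceramide barrier genes in each library, vehicle replicates 1 to 3 and rebamipide replicates 1 to 3; genes with 0 counts are drawn as open triangles at the foot of the axis, and lines mark group means. Ugcg stayed between 25.5 and 33.0 CPM in the rebamipide libraries, whereas 5 genes had 0 counts in rebamipide replicate 3.

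Counted over the group, 1 of 10 genes was called lower and 0 were called higher with edgeR, where 6.51% of all genes tested were called lower, so that the count is close to the background. Without vehicle replicate 2, and without rebamipide replicate 2, edgeR called 0 of 10, and at most 1 gene of the whole table. With limma-voom 1 of 10 was called lower, against 6.94%. DESeq2 called 4 of 10 lower, Cers3, Cers4, Ugcg and Smpd3, against 16% of all genes. In 7 of 10 genes every rebamipide library lay below every vehicle library, against 24% of all genes tested. All 10 log2 fold changes were below -1, against 24% of all genes, and their median was -2.33 against -0.17 over all genes. Without vehicle replicate 3, Degs2 was at -0.95, and without replicate 3 of both groups at -0.46. In the latter setting Abca12 was at -1.98, Cers4 at -1.24, Cyp4f39 at -1.51, Sptlc3 at -1.26 and Smpd3 at -1.17. Without rebamipide replicate 1, Smpd3 was at -3.29 and was called (adjusted p = 0.0377, edgeR). All 10 passed the filter on low counts.

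**Figure D2:**
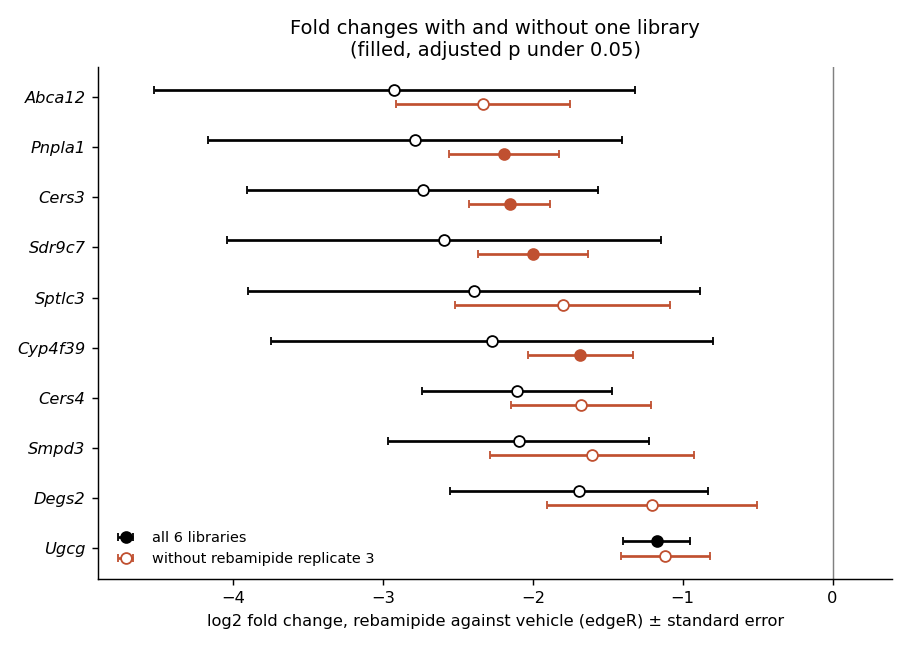
Log2 fold change (rebamipide against vehicle, edgeR) of each ceramide barrier gene with its standard error, for all 6 libraries and without rebamipide replicate 3. All values lie below 0, from -1.17 to -2.92 with all libraries, and without rebamipide replicate 3 the error bars are shorter for every gene except Ugcg; filled points passed an adjusted p of 0.05.

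Without rebamipide replicate 3 the fold changes of all 10 genes were smaller, and so were their errors except that of Ugcg. edgeR then called 4 of 10 genes lower, against 2.49% of 15327 genes. These were Cers3 (log2 fold change -2.15, SE 0.27, adjusted p = 0.0219), Pnpla1 (-2.19, 0.37 and 0.0281), Sdr9c7 (-2.00, 0.37 and 0.0323) and Cyp4f39 (-1.68, 0.35 and 0.0396). Ugcg was at -1.12 (adjusted p = 0.0678) and Abca12 at -2.33 (adjusted p = 0.0587). DESeq2 called 8 of 10 lower in these libraries, all but Degs2 and Smpd3, against 11.9% of all genes. Without replicate 3 of both groups edgeR called 3 of 10 lower, against 4.71%, and neither Cyp4f39 (adjusted p = 0.0613) nor Ugcg (adjusted p = 0.109) was among them.

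How much of each transcript was left differed between the genes. In rebamipide replicates 1 and 2 the levels were 15.5% to 55.0% of the vehicle mean. In replicate 3 Ugcg stood at 41.4%, Cers4 at 7.51%, Degs2 at 6.43%, Smpd3 at 4.92% and Cers3 at 0.352%, and the other 5 genes were at 0. The vehicle libraries differed too. Between vehicle replicates 1 and 3 the CPM ratio, replicate 3 to replicate 1, was 0.663 for Pnpla1, 0.829 for Cers3 and 1.22 for Cyp4f39, but 3.51 for Abca12, 4.12 for Degs2 and 5.60 for Sptlc3. The growing hair follicle markers differed between libraries as well, with a mean log2 CPM of 9.15, 7.76 and 2.73 in vehicle and 4.48, -3.14 and -3.55 in rebamipide. Their part in the spread between libraries was not tested.

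Levels of different genes were compared per length, as FPKM. In vehicle skin the order of the mean FPKM was Cers3 (24.8 ± 3.07), Cyp4f39 (24.3 ± 4.25), Sdr9c7 (20.1 ± 4.79), Smpd3 (16.6 ± 8.17), Ugcg (15.1 ± 2.55), Sptlc3 (13.9 ± 9.05), Cers4 (11.6 ± 5.21), Abca12 (10.2 ± 5.24), Pnpla1 (8.24 ± 2.10) and Degs2 (3.38 ± 2.30). The ranges of all neighbours in this order overlapped. In rebamipide-treated skin Ugcg had the highest mean FPKM, at 4.37 ± 0.479, followed by Cyp4f39 at 3.49 ± 3.54. The FPKM of the 10 genes summed to 114, 151 and 180 in vehicle replicates 1 to 3 and to 38.1, 21.7 and 5.05 in the rebamipide replicates.

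Several of the genes have a counterpart that most tissues use, and the FPKM ratio within a library does not depend on the scaling between libraries. The ratio of Cers3 to Cers2, the synthase most widely expressed in the body, was 1.70, 1.13 and 0.791 in vehicle and 0.0921, 0.0501 and 0.000789 in rebamipide. It was lower in every rebamipide library, and Cers2 itself rose (below). The ratio of Cers4 to Cers2 behaved in the same way, with 0.416, 0.497 and 0.615 in vehicle and 0.0617, 0.0317 and 0.00793 in rebamipide. The ratio of Degs2 to the general desaturase gene Degs1 was lower without overlap as well, at 0.0372 to 0.0914 in vehicle and 0.00436 to 0.0327 in rebamipide. The ratio of Smpd3 to the lysosomal sphingomyelinase gene Smpd1 also separated, though narrowly, at 0.176 to 0.675 in vehicle and 0.0129 to 0.172 in rebamipide. The ratio of Sptlc3 to Sptlc2, another catalytic subunit of the same enzyme, overlapped between the groups, at 0.434 to 2.03 in vehicle and 0 to 0.620 in rebamipide. These ratios show unequal change and not which gene of a pair changed.

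**Figure D3:**
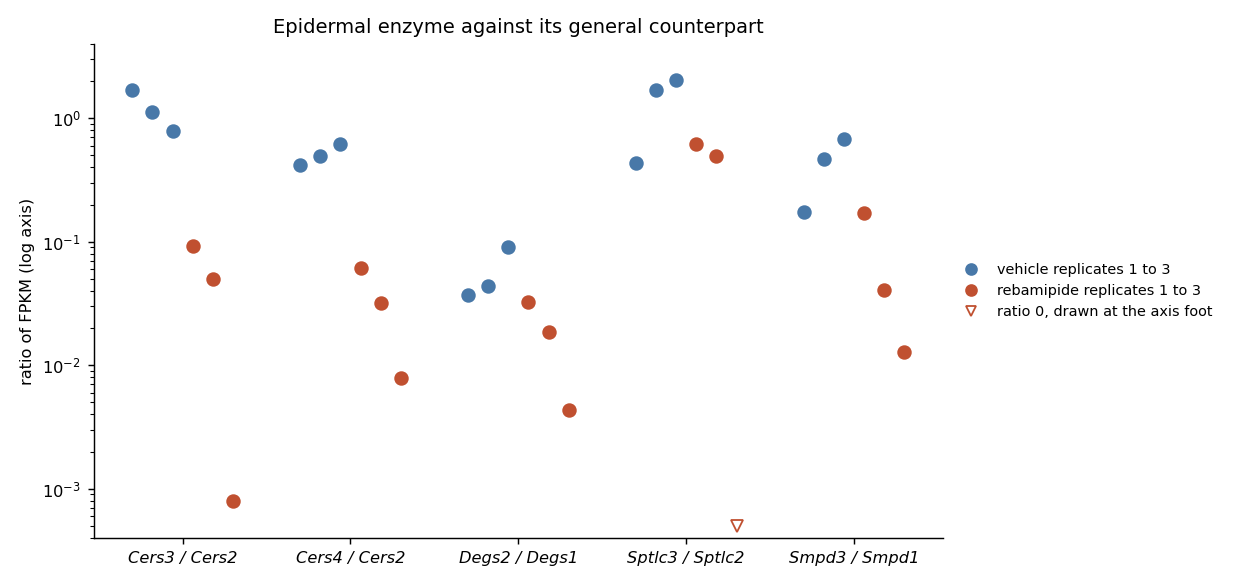
FPKM ratio (log axis) of an epidermal ceramide gene to its more widely used counterpart in each library, blue for vehicle and red for rebamipide. The ratio of Cers3 to Cers2 lies at 0.791 to 1.70 in vehicle and at 0.0921 or less in rebamipide, while that of Sptlc3 to Sptlc2 overlapped.

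Other genes of ceramide metabolism were counted in 4 lists. Of the 53 genes in all, 8 were called lower and 6 higher with edgeR and 39 did not pass, where 6.51% and 14.1% of all genes were called lower and higher, and their median log2 fold change was -0.84. With DESeq2 17 were called lower and 7 higher, against 16% and 16.6% of all genes. Without vehicle replicate 2, and without rebamipide replicate 2, edgeR called 0 of the 53 and at most 1 gene of the whole table. DESeq2 then called 11 and 9 of the 53 lower, against 13% and 9.28% of all genes. The fold changes stayed close, at 2.68 and 2.68 for Ormdl3, 2.00 and 2.01 for Cers2 and -2.34 and -2.40 for Cers6 on the log2 scale. All 14 genes called kept their sign under every normalization tried, but not every call. With scaling by total counts alone Abhd5 was at 0.60 (adjusted p = 0.0718) and Psap at 0.78 (adjusted p = 0.0603), and with upper quartile normalization the adjusted p of Sgpp1 was 0.0512. Without rebamipide replicate 3 edgeR called 7 of the 53 lower, against 2.49% of all genes, and 3 higher, against 6.6%. Of the 14 genes called with all libraries, 5 were called again, namely Ormdl3, Cers2, Cers6, B4galt6 and St3gal5, and 9 were not. The other 5 called without it were Nipal4, Elovl7, Ephx3, Tgm1 and Acer1.

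Of the 13 genes of general ceramide synthesis, 2 were higher (14.1% of all genes), 2 were lower (6.51% of all genes) and 9 did not pass, with a median log2 fold change of -0.37. Ormdl3, an inhibitor of serine palmitoyltransferase, rose from 86.8, 83.7 and 88.7 CPM in vehicle to 355, 622 and 747 CPM in rebamipide (log2 fold change 2.73, adjusted p = 0.00953). Cers2, the synthase of very long chain ceramides, rose from 47.5, 63.7 and 84.8 to 198, 291 and 327 CPM (log2 fold change 2.06, adjusted p = 0.0123). Both were higher in every rebamipide library, the reverse of Cers3 and Cers4. The genes called lower were Cers6, a synthase of shorter chains (log2 fold change -2.40, adjusted p = 0.0178), and Ormdl2, related to Ormdl3 (-0.89, adjusted p = 0.0373, and 0.121 without rebamipide replicate 3). Degs1, which makes ceramide from dihydroceramide, was at -0.02 (adjusted p = 0.965), and Sptssa, a small subunit of serine palmitoyltransferase, at -1.03 (adjusted p = 0.109).

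Of the 14 partners of acylceramide synthesis and the lipid envelope, 1 was higher (14.1% of all genes), 2 were lower (6.51% of all genes) and 11 did not pass. The median log2 fold change was -2.05, and in 10 of 14 every rebamipide library lay below every vehicle library, against 24% of all genes tested. Abhd5, the cofactor of Pnpla1 that also activates the triglyceride lipase of fat cells, rose (log2 fold change 1.25, adjusted p = 0.0306), and the FPKM ratio of Pnpla1 to Abhd5 was 0.657, 0.576 and 0.302 in vehicle and 0.0751, 0.0301 and 0 in rebamipide. The genes that fell were Hacd3, a dehydratase of fatty acid elongation (-0.84, adjusted p = 0.0291), and Slc27a4, a fatty acid transporter and acyl-CoA synthetase (-1.12, adjusted p = 0.0437). Without rebamipide replicate 3 the adjusted p was 0.0790 for Abhd5, 0.114 for Hacd3 and 0.125 for Slc27a4, while it was 0.0221 for Nipal4, 0.0348 for Elovl7, 0.0351 for Ephx3 and 0.0429 for Tgm1, all lower. Elovl4, the elongase of ultra-long chains, had 22589, 50864 and 77035 counts in vehicle and 10297, 6941 and 14 in rebamipide (-2.36, adjusted p = 0.316). This is the pattern of Abca12 and Sptlc3, with next to nothing in rebamipide replicate 3. Hsd17b12, a reductase of fatty acid elongation, was at 0.83 (adjusted p = 0.0991).

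Of the 19 genes of ceramide release and turnover, 2 were higher (14.1% of all genes), 2 were lower (6.51% of all genes) and 15 did not pass, with a median log2 fold change of -0.43. Psap, the precursor of the saposins that help lysosomal enzymes reach sphingolipids, rose (1.40, adjusted p = 0.0242), as did the ceramidase gene Acer2 (1.65, adjusted p = 0.0270). The ceramidase gene Acer3 fell (-1.45, adjusted p = 0.0171), and so did Sgpp1, a sphingosine phosphate phosphatase (-2.01, adjusted p = 0.0493). Without rebamipide replicate 3 none of these 4 genes passed, with adjusted p-values from 0.0525 for Acer3 to 0.0694 for Psap, and the ceramidase gene Acer1 was lower (-2.21, adjusted p = 0.0279). Smpd1 was at 0.57 (adjusted p = 0.0872).

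Of the 7 genes that act on glucosylceramide or build other glycosphingolipids, 1 was higher (14.1% of all genes), 2 were lower (6.51% of all genes) and 4 did not pass, with a median log2 fold change of -1.21. St3gal5, which makes the ganglioside GM3 from the lactosylceramide that follows the Ugcg product, rose (2.40, adjusted p = 0.0201). B4galt6, a lactosylceramide synthase gene, fell (-1.87, adjusted p = 0.0131), while its relative B4galt5 was at 0.03. Gal3st1, a sulfotransferase of sulfatide synthesis, fell as well (-2.04, adjusted p = 0.0246, and 0.0765 without rebamipide replicate 3).

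**Figure D4:**
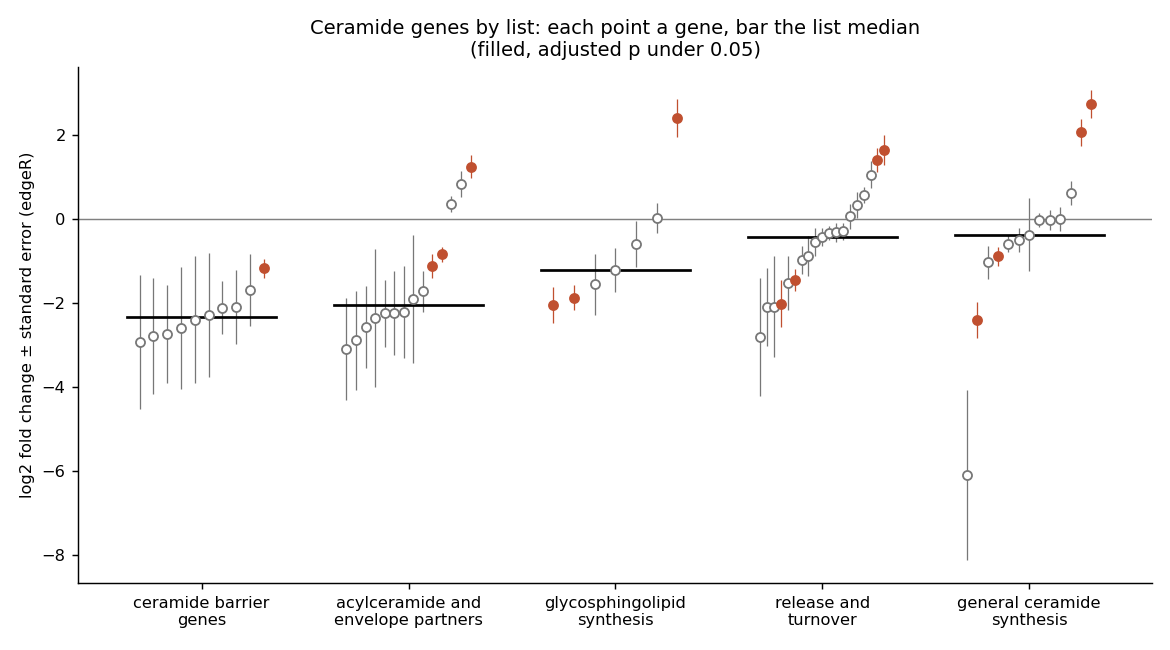
Log2 fold change (rebamipide against vehicle, edgeR) of each gene in the ceramide barrier group and the 4 lists of other ceramide genes; bars are list medians, lines standard errors, and filled points passed an adjusted p of 0.05. The median was -2.33 for the barrier genes, -2.05 for the acylceramide partners and -0.37 for general ceramide synthesis.

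The mean levels of the marker lists of keratinocytes, the cells that use these genes, were lower in the same libraries. The mean log2 CPM of the 10 barrier genes was 4.94, 5.64 and 5.95 in vehicle and 4.07, 3.54 and -1.15 in rebamipide. That of the 8 suprabasal keratinocyte markers, from the layer in which most of the barrier genes are known to be expressed, was 7.37, 8.12 and 7.96 in vehicle and 6.02, 5.46 and -2.08 in rebamipide. Both were lower in every rebamipide library and lowest in replicate 3. The median log2 fold changes were -2.61 for the suprabasal list, -2.44 for the 8 basal markers and -2.28 for the 10 cornified markers. The mean log2 CPM of the cornified list was 6.01 to 7.92 in vehicle and -2.35 to 5.72 in rebamipide. In edgeR 0 of 8 basal, 0 of 8 suprabasal and 1 of 10 cornified markers were called lower, against 6.51% of all genes, and in DESeq2 3, 2 and 1, against 16%. Lower without overlap were 7 of 8 basal, 5 of 8 suprabasal and 3 of 10 cornified markers, against 24% of all genes. Krt1 had 139 CPM in vehicle replicate 1 and 404 CPM in rebamipide replicate 1. The sum of the FPKM of the suprabasal list ranged from 1011 to 4165 in vehicle and from 1.59 to 774 in rebamipide, that of the basal list from 1320 to 2200 and from 13.8 to 463, and that of the cornified list from 572 to 1573 and from 10.2 to 337.

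**Figure D5:**
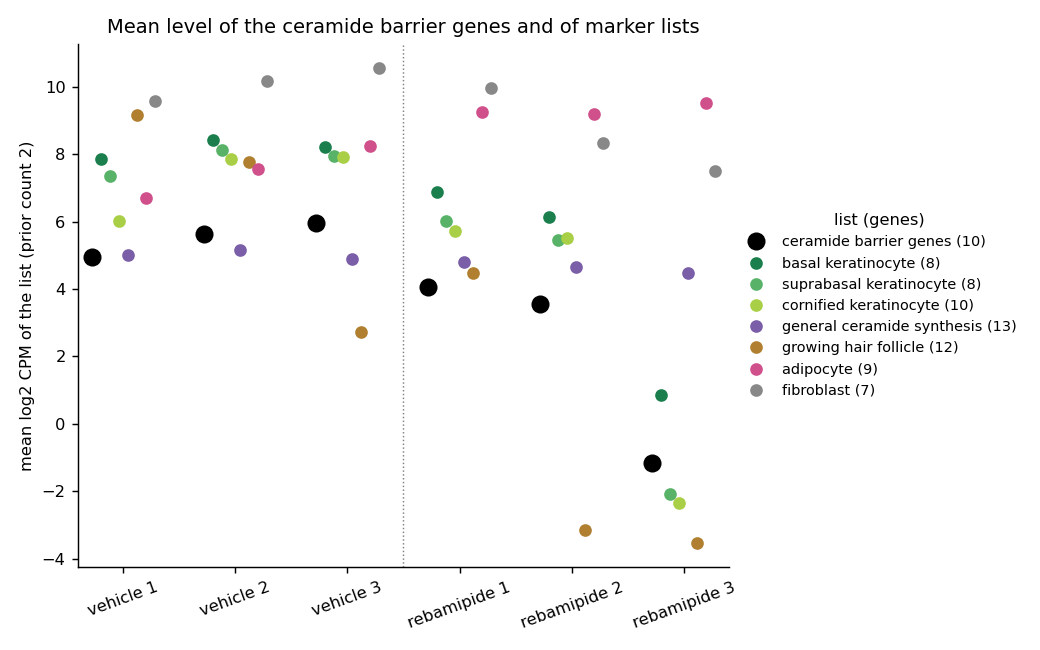
Mean log2 CPM (prior count 2) of the ceramide barrier genes and of marker lists in each library. The barrier genes and the 3 keratinocyte lists are all lowest in rebamipide replicate 3, where the barrier genes are at -1.15. The mean of general ceramide synthesis, over genes that rose and genes that fell, is 4.88 to 5.17 in vehicle and 4.49 to 4.79 in rebamipide.

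Within a library, the barrier genes were set against the suprabasal list. The mean log2 CPM of the barrier genes minus that of the list was -2.43, -2.48 and -2.00 in vehicle and -1.95, -1.92 and 0.93 in rebamipide. The difference between the groups was 1.32 higher in rebamipide (two-sided exact permutation test, p = 0.1, the smallest that 3 against 3 libraries allow), and 0.37 without rebamipide replicate 3 (exact p = 0.2). In that library 5 of the 10 barrier genes and 4 of the 8 markers were at 0 counts. Of the genes with counts there, Ugcg stood 6.81, Cers4 5.21, Smpd3 3.91, Degs2 1.17 and Cers3 0.37 above the list mean on the log2 scale. The difference between the groups was 1.38 and 1.25 with prior counts of 0.5 and 5 in place of 2. Against the basal list the difference was 0.18 (exact p = 0.6) and without rebamipide replicate 3 it was -0.0506 (exact p = 0.9), and against the cornified list it was 0.95 (exact p = 0.5) and -0.0580 (exact p = 1). The direction against these lists thus depended on that library. By gene, Ugcg stood higher against the suprabasal list in rebamipide replicates 1 and 2, at -1.34 and -0.41, than in vehicle, at -2.01 to -1.73. Degs2 did so by a small margin, at -4.03 and -4.26 against -5.72 to -4.28. The difference, rebamipide minus vehicle, was -5.18 on the log2 scale against the adipocyte list, -5.28 against the endothelial list and -9.22 against the brown adipocyte list (exact p = 0.1 each), values in which replicate 3 again holds genes at 0. It was -1.75 against the sebaceous gland, -1.86 against the fibroblast and -2.10 against the leukocyte list. Against the skeletal muscle and the neural and Schwann lists it was -2.58 and -3.28. The difference was 3.92 against the growing hair follicle list (exact p = 0.3) and 0.22 against the melanocyte list. The part of a change in tissue make-up in these differences was not tested.

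Over the 6 libraries, the genes outside the group whose log2 CPM followed the mean of the barrier genes most closely, of 13368 with a mean of at least 50 counts, were Rnf225, Tnfrsf11b, Crabp2, Cyp2g1 and AAdacl4fm3, with Pearson correlations of 0.998 to 0.999. Crabp2, which binds retinoic acid, had 25.7, 40.8 and 52.7 CPM in vehicle and 13.2, 9.97 and 0.153 CPM in rebamipide. Within the group the closest pairs were Cers3 and Pnpla1 (0.998), Abca12 and Sdr9c7 (0.997) and Cyp4f39 and Sdr9c7 (0.996). Ugcg was the least alike, with 0.866 to its nearest gene, Cers4. These correlations share the 6 libraries and were not repeated without rebamipide replicate 3, the library lowest in the group mean. They are given as a description.

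The sequences before the start sites were read to describe what the genes share. RefSeq promoters of build GRCm38.p6 matched 9 of the 10 symbols, all but Smpd3, and 200 bases before the start are shown for the 3 genes with a GC box, for the gene with a TATA box and for the gene with a p63 decamer. Capitals mark these motifs on either strand. The regions are chr4:59189350-59189549, plus strand, for Ugcg, chr8:4493205-4493404, plus strand, for Cers4, chr12:108702307-108702506, minus strand, for Degs2, chr10:127898335-127898534, plus strand, for Sdr9c7 and chr1:71414911-71415110, minus strand, for Abca12, each written 5′ to 3′ in the direction of the gene.
Ugcg: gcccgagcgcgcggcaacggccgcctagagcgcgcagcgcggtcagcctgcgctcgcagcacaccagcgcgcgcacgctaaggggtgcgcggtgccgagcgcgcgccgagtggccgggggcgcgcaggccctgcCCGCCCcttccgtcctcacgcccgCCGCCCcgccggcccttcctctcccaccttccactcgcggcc
Cers4: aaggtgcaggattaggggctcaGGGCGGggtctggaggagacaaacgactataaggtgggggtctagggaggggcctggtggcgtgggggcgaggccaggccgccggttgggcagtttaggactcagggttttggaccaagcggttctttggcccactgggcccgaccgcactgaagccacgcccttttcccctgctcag
Degs2: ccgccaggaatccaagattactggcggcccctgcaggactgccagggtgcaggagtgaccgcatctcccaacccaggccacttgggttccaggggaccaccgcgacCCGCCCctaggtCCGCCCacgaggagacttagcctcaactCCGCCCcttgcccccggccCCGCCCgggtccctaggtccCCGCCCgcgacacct
Sdr9c7: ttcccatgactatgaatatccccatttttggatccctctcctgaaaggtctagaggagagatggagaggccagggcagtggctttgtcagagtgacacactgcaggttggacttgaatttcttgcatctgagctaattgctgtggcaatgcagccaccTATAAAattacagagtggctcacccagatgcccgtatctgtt
Abca12: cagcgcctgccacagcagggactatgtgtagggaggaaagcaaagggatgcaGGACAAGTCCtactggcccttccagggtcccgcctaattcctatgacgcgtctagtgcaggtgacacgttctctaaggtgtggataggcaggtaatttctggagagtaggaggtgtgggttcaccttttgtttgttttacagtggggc

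The GC box (GGGCGG, the letters that Sp factors are known to bind) was found in 3 of 9 promoters, against 35.7% of 32851 promoters of the same 300 bases, from 250 before to 50 after the start. These were Ugcg, with matches beginning 66 and 42 bases before the start, Cers4, with a match 178 bases before it, and Degs2, with 5 matches. The share was close to that of all promoters. The shown bases of Ugcg were 80.0% G or C, those of Degs2 70.5% and those of Cers4 64.5%, against a median of 53.0% over all promoters. Sdr9c7 (48.0%) was the 1 gene of the 9 with a TATA box (TATAAA, against 13.6% of all promoters), and Abca12 (53.5%) the 1 gene with the p63 decamer (8.4% of all), the motif of the factor that keeps keratinocyte identity. The other motifs searched on both strands were CCAAT (1 of 9, 37.4% of all), the CACCC box CCACCC (1 of 9, 31.5%), the AP-1 letters TGANTCA (0 of 9, 7.8%), the GRHL letters AACCNG (5 of 9, 39.4%), the C/EBP letters TTGCNNAA (2 of 9, 10.8%) and the E-box CANNTG (6 of 9, 72.3%), and the C/EBP and E-box matches of Pnpla1 overlapped. A match says only that the letters are in the window.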

How the data were processed

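Poly-A RNA of dorsal skin from 3 vehicle and 3 rebamipide mice was sequenced. The authors deposited raw counts, as whole reads per gene, and the FPKM deposited by the authors equal counts divided by gene length and library total. The submitters' processing notes name fastp 0.22.0, HISAT2 2.1.0, HTSeq 0.9.1 and GRCm39. Whether counting used strand is not given in the sources used here.

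Groups follow the sample labels. Of the 21959 rows, 51 had a gene ID but no symbol and were kept. Libraries of a group differed by more than sampling noise (chi-square over its degrees of freedom, 79.1 to 714). Counts were tested in R 4.3.3 with edgeR 4.0.16 (TMM, filterByExpr, quasi-likelihood test, Benjamini-Hochberg adjustment over 14875 genes, threshold 0.05). Standard errors were taken from the log2 fold change and its F statistic. The test was first checked on simulated counts with 1 setting of spread for all genes and no outlying library. That check cannot show how the test behaves with libraries as unlike as these. Log2 CPM used a prior count of 2. Alternatives were DESeq2 1.42.0, limma-voom and limma on log2 FPKM (limma 3.58.1, pseudocounts 1 and 0.1), other normalizations and filters, a replicate block and leaving out libraries. Values per library were compared with exact permutation tests.

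The 10 genes and all lists were chosen with earlier results of these data known. Named besides them are, of each list, the 3 genes with the smallest p and the 2 with the highest vehicle FPKM, Krt5, Krt14, Krt1, Krt10 and Ucp1 of the marker lists, and the 5 genes most like the group mean. Ormdl2, Sgpp1, Nipal4, Elovl7, Ephx3, Tgm1, Acer1, Cidea, Elovl3, Itga6, Dst, Itgb4, Cdsn, Myh7, the denominators of the ratios and the printed promoters were chosen after their values were seen. The table's positions (GRCm39) were not mixed with the RefSeq sequences (GRCm38.p6).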

Additional observations from a re-analysis of the deposited data

How the results depend on the processing

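All 10 barrier genes had negative log2 fold changes in each of the alternatives that gave them a value, but the size moved. With limma-voom the median was -4.23 against -2.33, with Abca12 at -5.51, Cyp4f39 at -4.89 and Sdr9c7 at -5.01. The number called lower (1 with edgeR) was 2 with scaling by total counts alone (25.2% of all genes called lower), 2 with at least 10 counts in every library (4 of the 10 genes tested; 12% of all), 4 with DESeq2 (16%), 9 with limma on log2(FPKM + 1) (31.4%), 6 on log2(FPKM + 0.1) (31.2%) and 2 at an unadjusted p under 0.05 with an absolute log2 fold change over 1 (14.5%). With single libraries left out it ranged from 0 to 8 (0 to 4 with edgeR and with limma-voom, and 1, 2, 3, 5 or 8 with DESeq2), and without replicate 3 of both groups it was 3. Without vehicle replicate 2 edgeR called 0 genes of the whole table (4116 at an unadjusted p under 0.05), while DESeq2 called 2114 lower and 2662 higher. Without rebamipide replicate 2 edgeR called 0 lower and 1 higher (4062 at an unadjusted p under 0.05). Of the 53 other ceramide genes, 8 were lower (6.51% of all genes). This was 19 by total counts (25.2%), which moved the median of all genes to -0.78, and 17 with DESeq2 (16%). It was 30 and 28 on log2(FPKM + 1) and log2(FPKM + 0.1) (31.4% and 31.2%) and 13 at the unadjusted threshold (14.5%). With libraries left out it was 0 to 23, the latter with DESeq2 without rebamipide replicate 1 (25.9%). DESeq2 gave 18 and 16 without vehicle replicate 1 and without rebamipide replicate 3 (13.1% and 11.9%). The 6 called higher (14.1% of all genes) ranged from 0 to 10 with libraries left out. They were 3 in edgeR without vehicle replicate 1, without rebamipide replicate 3 and without both replicates 3 (10%, 6.6% and 6.85%). They were 4 with total counts (8.45%) and on log2(FPKM + 1) and log2(FPKM + 0.1) (9.22% and 9.18%). Same-numbered libraries did not deviate together (correlations -0.0254, -0.0359 and -0.00199), so the numbers were not taken as pairs. With the replicate block 1 barrier gene and 4 other ceramide genes were lower (5.75% of all genes) and 5 other ceramide genes higher (9.63%). With libraries paired by number, the barrier level against the suprabasal list differed by 1.32 (exact p = 0.25, the smallest that 3 pairs allow). Without the block, that difference was 0.18 with the basal and 0.95 with the cornified list; for both lists it reversed without rebamipide replicate 3, an alternative added after seeing the data (-0.0506 and -0.0580). It was 1.38 and 1.25 with prior counts of 0.5 and 5, 1.32 on FPKM and 0.37 to 1.81 with libraries left out. In rebamipide replicate 3, which holds all 5 barrier genes at 0 counts, values up to 0.114 CPM were not detectable.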
